A study of Mus musculus with 8 samples.

Results

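Hcrtr1, Hcrtr2, Agtr1a, Agt and Ace were followed across every group of nuclei in 2 brain regions of C57BL/6JN mice at 3 and 21 months of age. Of the 5 genes, taken from the 32285 genes in the files, Hcrtr1 and Hcrtr2 encode the receptors for the orexin (hypocretin) peptides. Agtr1a encodes the angiotensin II type 1a receptor, Agt the precursor angiotensinogen, and Ace the angiotensin-converting enzyme. Hcrtr2 and Agtr1a were picked because their levels were lower at 21 months in hippocampal neurons, so those 2 receptors carry no test of age in hippocampal neurons and their values there are a description. Hcrtr1, Agt and Ace were listed with them as members of the same 2 systems.

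Orexin peptides are made by a small population of hypothalamic neurons with widespread axons and promote wakefulness and feeding; both receptors couple to Gq proteins, phospholipase C and calcium signals. In the renin-angiotensin system, renin cleaves angiotensinogen, angiotensin-converting enzyme trims the product to angiotensin II, and the type 1 receptors, also Gq-coupled, respond to it. In brain, angiotensinogen is known as an astrocyte product, and angiotensin-converting enzyme as an enzyme of striatal projection neurons, choroid plexus and vessels.

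Single-nucleus RNA sequencing was made from punches of the left anterior hippocampus and left caudate putamen, with 2 libraries for each region and age, 8 in all. Nuclei of 1 male and 1 female, matched in age, were pooled into each library and sorted on a DNA dye. Wild-type mice of the same strain made up all groups, and age was the only difference by design within a region. A pool cannot be split back into animals, so n below is the number of libraries.

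The libraries held 109826 barcodes, of which 97421 were kept, 6340 to 17016 per library, with 67205436 to 234811422 unique molecular identifiers (UMIs) per library and medians of 6609.5 to 11275 UMIs per nucleus. Libraries shared 0.305% to 0.674% of the smaller library's barcodes with each other. Clustering gave 36 groups in the hippocampus and 30 in the caudate putamen. Groups were named from marker genes as "X-like" and otherwise kept their cluster number, which left 9698 nuclei unnamed. Both replicate 1 libraries of the caudate putamen stood apart from both replicate 2 libraries: they held 132 of 132 choroid plexus-like nuclei, 50 of 50 ependymal-like nuclei, 169 of 171 nuclei of astrocyte-like cluster 22, 2280 of 2509 nuclei of D1-like cluster 7 and 1303 of 1436 nuclei of D2-like cluster 10. Levels are given as counts per 1000000 UMIs of the group (CPM), in the order 3-month libraries 1 and 2, then 21-month libraries 1 and 2.

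All 5 genes matched the GENCODE vM21 annotation of GRCm38. Hcrtr2 (ENSMUSG00000032360) lies at chr9:76225880-76323856 on the minus strand, is 97977 bases long and 93.7% intronic. Agtr1a (ENSMUSG00000049115) lies at chr13:30336441-30382867 on the plus strand and is 94.0% intronic. Hcrtr1 (ENSMUSG00000028778, chr4:130130217-130139359, minus strand) is 9143 bases long and 71.5% intronic. Agt (ENSMUSG00000031980) lies at chr8:124556534-124569706 on the minus strand, and Ace (ENSMUSG00000020681) at chr11:105967945-105989964 on the plus strand with 25 exons. Hcrtr2 and Ace have annotated antisense partners, Gm27234 with 60 UMIs and Gm11651 with 472 UMIs over both regions, and Agtr1a holds the sense-intronic Gm48161 with 153 UMIs, against 4642, 3071 and 1959 UMIs for the respective host genes.

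RefSeq promoter windows of GRCm38.p6, 250 bases before to 50 bases after a start, were found for 4 of the 5 genes. Agtr1a was the gene with no entry. Ace has 2 windows, of which the upstream one is printed; the other held an E-box 211 bases before its start and no TATAAA, CRE half-site or GC box. The windows of Hcrtr2, Agt and Ace are shown because, of the genes with a window, these 3 had enough UMIs for the results below, in interneuron-like and unnamed hippocampal neurons, an astrocyte cluster, and striatal projection neurons with choroid plexus. Capitals mark matches, on either strand, to a TATA box (TATAAA), a CRE half-site (TGACG), an E-box (CAGCTG) or a GC box (GGGCGG).
Hcrtr2, chr9:76323574-76323873, minus strand: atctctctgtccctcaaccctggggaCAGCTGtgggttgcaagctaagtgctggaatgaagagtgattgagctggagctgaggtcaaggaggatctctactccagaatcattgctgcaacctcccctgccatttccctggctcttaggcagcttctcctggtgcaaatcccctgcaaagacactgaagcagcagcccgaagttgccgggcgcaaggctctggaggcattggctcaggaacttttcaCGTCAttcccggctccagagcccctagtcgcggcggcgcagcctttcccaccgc
Agt, chr8:124569657-124569956, minus strand: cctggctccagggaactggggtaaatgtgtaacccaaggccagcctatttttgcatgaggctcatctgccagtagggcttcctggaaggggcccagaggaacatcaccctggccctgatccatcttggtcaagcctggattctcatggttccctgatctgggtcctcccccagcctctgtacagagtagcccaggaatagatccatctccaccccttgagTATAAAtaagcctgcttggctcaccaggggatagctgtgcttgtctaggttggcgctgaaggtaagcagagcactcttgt
Ace, chr11:105967698-105967997, plus strand: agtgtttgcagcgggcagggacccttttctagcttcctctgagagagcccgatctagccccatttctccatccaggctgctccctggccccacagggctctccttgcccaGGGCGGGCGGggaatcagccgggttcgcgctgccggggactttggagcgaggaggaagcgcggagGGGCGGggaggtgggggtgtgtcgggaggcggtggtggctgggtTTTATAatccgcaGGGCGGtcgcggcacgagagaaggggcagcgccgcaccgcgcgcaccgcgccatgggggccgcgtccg
The Agt window held TATAAA on the gene's own strand 30 bases before the start, a motif present in 13.6% of the 32851 windows in the table. The Hcrtr2 window held no TATAAA; it held the CRE half-site on the opposite strand 4 bases before the start (in 20.8% of all windows) and the E-box 224 bases before it (16.3%). In the Ace window shown 4 GC boxes (present in 35.7% of all windows) lay on its strand, 2 of them overlapping, and TATAAA lay on the opposite strand 31 bases before the start. A match of letters is a description of the window and says nothing of a factor bound there.

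Hcrtr2 was concentrated in a few neuronal groups. The highest level among the 33 groups with at least 20 nuclei in every library was in hippocampal cluster 22, led by Tshz2 and Hs3st4 and left unnamed, at 119.75, 118.98, 140.74 and 124.11 CPM from 195, 181, 132 and 49 UMIs. Its 4 libraries averaged 125.9 ± 10.2 CPM (SD, n = 4), above every library of every other such group. Next came the hippocampal interneuron-like nuclei, GABAergic local neurons, at 72.80, 87.91, 89.54 and 40.90 CPM, and hippocampal cluster 8 at 63.39, 51.97, 54.50 and 44.07 CPM. The ranges of those last groups overlapped. Of the 33 groups, 4 averaged at least 10 CPM and 17 averaged below 1 CPM. The oligodendrocyte-like nuclei, which should lack the receptor, gave 0.94, 1.02, 0.51 and 0 CPM in the hippocampus from 3, 5, 2 and 0 UMIs.

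**Figure D1:**
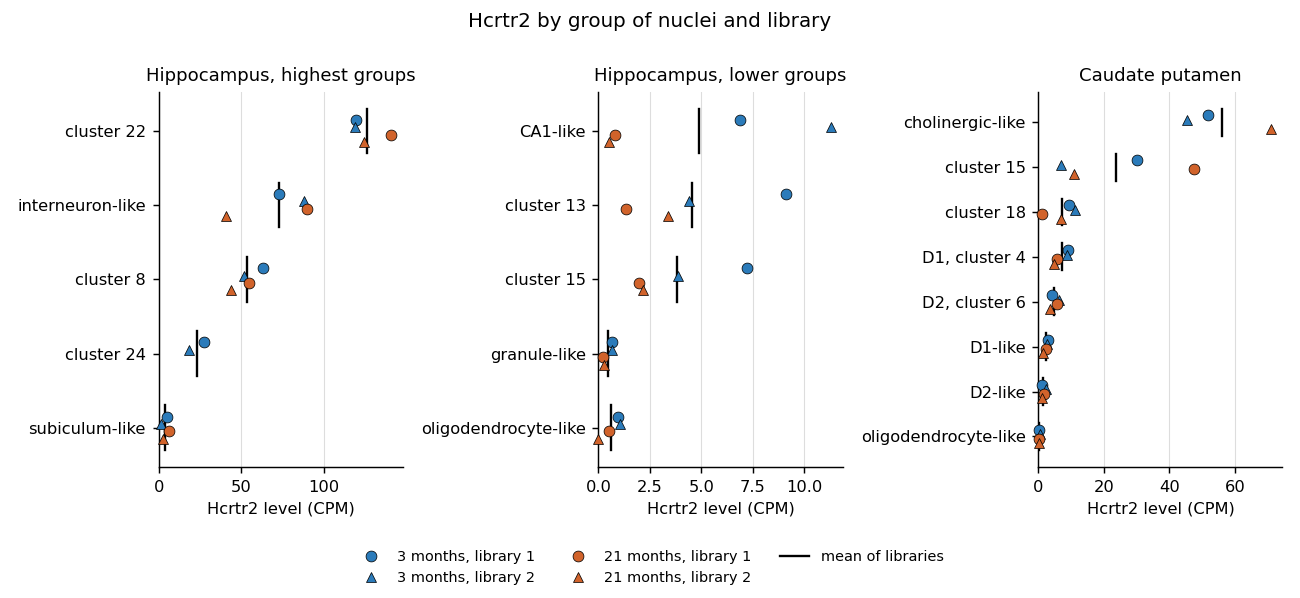
Hcrtr2 level in UMIs per 1000000 UMIs (CPM, linear axes that differ between panels) in named and unnamed groups of nuclei; each point is 1 library with at least 20 nuclei in the group, blue at 3 and orange at 21 months, and the bar is the mean of those libraries. Cluster 22 lies between 118.98 and 140.74 CPM in all 4 hippocampal libraries, whereas in CA1-like nuclei both 3-month libraries lie above both 21-month libraries.

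Most hippocampal Hcrtr2 transcripts came from these few groups. Interneuron-like nuclei gave 36.3% of the 3287 hippocampal Hcrtr2 UMIs, cluster 8 gave 19.8%, cluster 22 gave 16.9% and CA1-like nuclei 10.7%. At least 1 Hcrtr2 UMI was found in 65.8%, 58.9%, 74.1% and 76.9% of cluster 22 nuclei and in 30.3%, 32.2%, 34.0% and 23.7% of interneuron-like nuclei. In oligodendrocyte-like nuclei the shares were 0.198%, 0.359%, 0.172% and 0% (0 of 1022 nuclei in 21-month library 2). Interneuron-like nuclei were deeper, with medians of 13912 to 22022 UMIs against 2933 to 3209. After each nucleus was thinned to 2000 UMIs, 12.5%, 13.9%, 15.0% and 9.28% of interneuron-like nuclei kept an Hcrtr2 UMI, against 0.245%, 0.0854%, 0.0960% and 0% of oligodendrocyte-like nuclei.

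Within the interneuron-like nuclei, those with Hcrtr2 UMIs had a distinct set of other transcripts. Lamp5, a marker of neurogliaform and related interneurons, stood at 99.0, 94.2, 80.0 and 81.2 CPM in nuclei with Hcrtr2 against 12.5, 19.2, 15.3 and 15.4 CPM in nuclei without. Sv2c, a synaptic vesicle protein gene, was at 182.5, 128.4, 151.6 and 106.8 CPM with and 22.9, 20.5, 33.4 and 16.0 CPM without. Pde11a, a cyclic nucleotide phosphodiesterase gene, Pard3b and Egfr were also higher with Hcrtr2 in all 4 libraries. Ntng1, Chrm2 (a muscarinic acetylcholine receptor gene), 6330411D24Rik, Kctd8 and Cdh18 were lower in all 4. Chrm2, for example, was at 42.9, 12.5, 7.02 and 0 CPM with Hcrtr2 and 245.4, 148.8, 98.1 and 109.1 CPM without. These genes were chosen for this split and are a description. General interneuron markers differed between the same nuclei too. Gad2, an enzyme of GABA synthesis, stood at 604.6, 595.7, 622.0 and 596.0 CPM with Hcrtr2 and 329.9, 280.4, 388.0 and 354.4 CPM without, and Gad1, Erbb4 and Nxph1 were likewise higher with Hcrtr2 in all 4 libraries. Kcnc2, Cnr1, Sst and Pvalb were lower with Hcrtr2 in all 4. Sst, for example, was at 4.77, 3.03, 0 and 0 CPM with Hcrtr2 and 23.3, 16.5, 12.4 and 20.8 CPM without. The other markers of the list, Slc32a1, Lhx6, Adarb2, Vip, Npy and Dlx6os1, differed in direction between libraries.

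In CA1-like nuclei, the pyramidal neurons of the hippocampal output field, Hcrtr2 stood at 6.89 and 11.31 CPM at 3 months and 0.82 and 0.49 CPM at 21 months, from 105, 239, 5 and 2 UMIs. The young libraries averaged 9.10 ± 3.13 CPM and the old 0.66 ± 0.24 CPM (SD, n = 2 each), a log2 fold change of -3.63 in the edgeR fit. CA1-like Hcrtr2 was among the values that picked the gene. The old libraries' levels lay within the range of the hippocampal oligodendrocyte-like nuclei. Hcrtr2 UMIs were spread over 62 of 821 and 135 of 1106 young nuclei, against 4 of 266 and 2 of 193 old nuclei. Few nuclei held many: 2 and 4 young nuclei had over 5 UMIs, the highest 20, and without them the young levels were 6.13 and 9.52 CPM. No Gad1 or Gad2 UMI was found in those 6 nuclei.

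Young CA1-like nuclei with Hcrtr2 had more Pde11a (73.4 against 33.1 CPM in library 1, 118.0 against 60.7 CPM in library 2), Cntn5, Gpc5, Lhfp and Gm20713 than nuclei without. They had less Fras1 (49.5 against 128.1 and 54.0 against 113.0 CPM), Inpp4b, Ndst4, Col11a1 and Ptprr. Over all CA1-like nuclei, Pde11a stood at 36.3, 68.6, 10.4 and 25.5 CPM, Gpc5 at 645.6, 693.1, 297.6 and 369.0 CPM and Cntn5 at 84.7, 108.7, 35.7 and 59.7 CPM, with both 21-month libraries below both 3-month libraries for each, as for Gm20713. Lhfp, at 72.1, 69.1, 103.4 and 61.9 CPM, overlapped between the ages. Of the 5 genes that were lower with Hcrtr2, Ptprr, at 236.8, 175.5, 221.2 and 230.8 CPM, overlapped too, and the other 4 were higher in both old libraries. Ndst4 stood at 421.1, 358.2, 496.3 and 537.2 CPM. The summed level of the 8 CA1 markers was 3247, 3587, 3327 and 3414 CPM, a list that is not particular to CA1, since it summed to 12590 to 13451 CPM in dentate granule-like nuclei. In the same CA1-like nuclei the 7 subiculum markers summed to 520.0, 469.9, 601.4 and 628.0 CPM and the 8 choroid plexus markers to 60.9, 58.5, 96.8 and 223.4 CPM, both higher in both old libraries. The oligodendrocyte markers summed to 83.8, 104.5, 106.2 and 131.7 CPM, also higher in both old libraries, and the astrocyte markers to 120.0, 148.9, 114.3 and 114.0 CPM, lower in both. The class held 821, 1106, 266 and 193 nuclei, and the part that these markers or a different mix of CA1 nuclei play in the Hcrtr2 values was not tested.

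Elsewhere in the hippocampus the receptor's values by age were not of 1 kind. In cluster 22 the log2 fold change from 3 to 21 months was 0.21, in cluster 8 it was -0.14 and in interneuron-like nuclei -0.25, where 21-month library 2 alone was low. Cluster 13 gave 9.15, 4.42, 1.32 and 3.38 CPM and cluster 15 gave 7.22, 3.87, 1.98 and 2.16 CPM, with both old libraries below both young ones in each. Subiculum-like nuclei gave 4.89, 1.45, 6.32 and 2.74 CPM, with overlapping ages. Dentate granule-like nuclei stood at 0.68, 0.66, 0.23 and 0.25 CPM from 32, 69, 10 and 9 UMIs, at or below the oligodendrocyte-like level of the same region in 3 of the 4 libraries. Cluster 27 had 59.36 and 34.03 CPM in 94 and 95 young nuclei, with 0 and 1 nuclei in the old libraries, so it gives no comparison of ages. Differences between these groups in their age values were not tested.

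In the caudate putamen, Hcrtr2 was highest in the cholinergic-like nuclei, the large acetylcholine interneurons. Their 36, 46, 19 and 44 nuclei gave 51.80, 45.47, 19.14 and 70.94 CPM from 49, 55, 9 and 62 UMIs, pooled 50.01 CPM (exact Poisson interval 42.9 to 58.0, counting error only). Cluster 15, with Slc17a7, a gene of cortical excitatory neurons, among its leading genes, gave 30.09, 6.79, 47.55 and 10.74 CPM. Its replicate 1 libraries were high and its replicate 2 libraries low at both ages. D1-like nuclei, projection neurons with the D1 dopamine receptor, gave 43.0% of the 1355 Hcrtr2 UMIs of the region at a level of 2.88, 2.62, 2.27 and 1.46 CPM. D2-like nuclei gave 1.10, 2.19, 1.79 and 1.11 CPM.

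A minor share of the projection neurons held most of this signal. D1-like cluster 4, 22.8% of D1-like nuclei, carried 65.1% of their Hcrtr2 UMIs, at 8.90, 8.84, 5.80 and 4.92 CPM. D2-like cluster 6, 24.1% of D2-like nuclei, carried 73.5%, at 4.03, 6.33, 5.74 and 3.44 CPM. Oligodendrocyte-like nuclei of the region stayed between 0.18 and 0.58 CPM. In cluster 4 both old libraries were below both young, and in cluster 6 the ages overlapped.

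The caudate putamen was not among the values by which Hcrtr2 was picked, so its age test is given there. In D1-like nuclei the log2 fold change was -0.59 ± 0.23 (SE; 95% interval -1.05 to -0.14), with an adjusted p of 0.226 by edgeR's quasi-likelihood test over 18401 genes, of which 1.36% were called, and so did not pass. It was -0.95 without 21-month replicate 1, -0.30 without 21-month replicate 2 and -0.99 at resolution 2.0. Of the alternatives only a replicate block passed. Its value is given at the end, since the labels tie these libraries by number alone. The mix of D1-like clusters moved beside the age value. Cluster 2, which carried 13.2% of the D1-like Hcrtr2 UMIs, made up 36.2% and 51.7% of the class at 3 months. At 21 months it made up 25.6% and 28.3%. Cluster 3, with 2.41% of the UMIs, made up 14.7%, 21.8%, 19.5% and 46.0%, and cluster 4 17.6%, 23.4%, 25.2% and 24.3%. Cluster 7, with 19.2% of the UMIs, made up 31.4%, 3.15%, 29.6% and 1.42%, high in both replicate 1 libraries. The part of this mix in the age value was not tested. For D2-like nuclei it was -0.26 ± 0.40 (adjusted p = 0.745), where 4.67% of genes were called. Cluster 15 gave 0.64 ± 0.94 (adjusted p above 0.99), beside 0% of 11361 genes called by edgeR, 176 genes at an unadjusted p under 0.05 and 0 called by DESeq2. In D2-like nuclei the sign turned without 21-month replicate 2 (0.05) and without 3-month replicate 2 (0.39).

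Hcrtr1 was scarce, with 114 UMIs in the hippocampus and 57 in the caudate putamen. The highest average among the 33 groups was 1.80 CPM, 31 groups averaged below 1 CPM, and no group had enough UMIs for an age test. The highest pooled level was in hippocampal cluster 32, an unnamed neuronal group of 29, 76, 18 and 9 nuclei, at 1.32, 10.74, 6.05 and 8.05 CPM from 1, 23, 4 and 3 UMIs, pooled 7.88 CPM (exact Poisson interval 5.36 to 11.2). Cluster 8, which was also high for Hcrtr2, had 1.11, 2.80, 0.88 and 2.42 CPM. Across the 47 groups of both regions the correlation of Hcrtr1 with Hcrtr2 on the log2(CPM + 1) scale was r = 0.33, the highest between any pair of the 5 genes.

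Agtr1a had its highest level in the eccentric-like nuclei of the caudate putamen, a minor kind of spiny projection neuron marked by Otof and Casz1. They gave 48.15, 85.68, 39.29 and 79.73 CPM from 152, 410, 125 and 235 UMIs, a mean of 63.2 ± 22.9 CPM (SD, n = 4). With clustering at resolution 0.5 the eccentric-like mean was 23.5 CPM. At the main resolution of 1.0, no library of any other group with at least 20 nuclei in every library reached this range. Cholinergic-like nuclei, with 19 nuclei in 21-month library 1, came next at 29.60, 37.21, 25.52 and 19.45 CPM from 28, 45, 12 and 17 UMIs. The other 32 groups of that kind averaged 2.15 CPM or less, and 25 of the 33 averaged below 1 CPM. Cholinergic-like nuclei were a high group for both Agtr1a and Hcrtr2, whereas eccentric-like nuclei had 2.85, 2.30, 0 and 3.73 CPM of Hcrtr2.

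**Figure D2:**
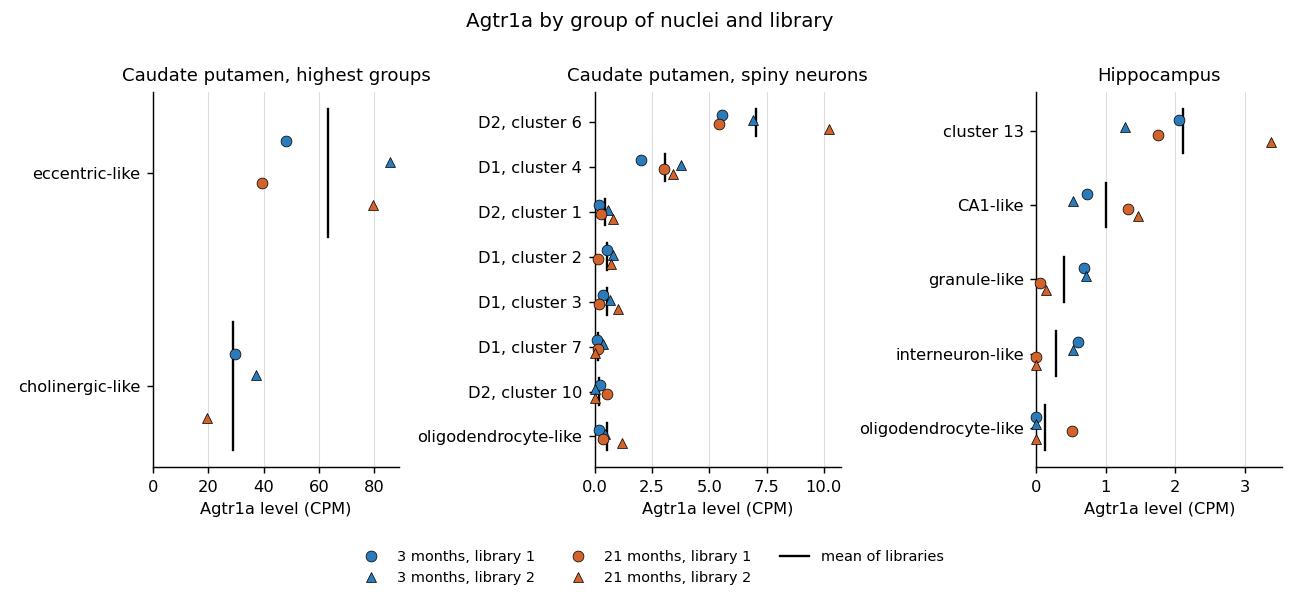
Agtr1a level in UMIs per 1000000 UMIs (CPM, linear axes that differ between panels) by group of nuclei; each point is 1 library with at least 20 nuclei in the group, blue at 3 and orange at 21 months, and the bar is the mean of those libraries. Eccentric-like nuclei lie between 39.29 and 85.68 CPM, and the granule-like nuclei of both 3-month libraries lie above those of both 21-month libraries at levels below 1 CPM.

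At least 1 Agtr1a UMI was found in 30.1%, 50.2%, 23.8% and 35.0% of eccentric-like nuclei, against 0.0579% to 0.306% of oligodendrocyte-like nuclei of the same region. The medians of UMIs per nucleus were 9169.5 to 13724 and 2405 to 3450.5. Thinned to 2000 UMIs, 6.19%, 11.5%, 4.10% and 13.3% of eccentric-like nuclei kept a UMI, against 0.0678% to 0.139%. Replicate 1 libraries were lower than replicate 2 libraries at both ages on the CPM scale and after thinning. A finer clustering, whose members were nearly but not exactly those of the class, gave an eccentric-like cluster of 78, 84, 70 and 78 nuclei at 105.6, 166.3, 78.4 and 200.7 CPM and another of 149, 242, 174 and 223 nuclei at 17.0, 58.9, 23.4 and 42.6 CPM. Agtr1a was among the 10 leading genes that defined both the class and the high fine cluster, so these levels are a description.

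Eccentric-like nuclei with Agtr1a UMIs differed in other genes from those without. Cntnap5b, a cell adhesion gene, stood at 1052, 1091, 1086 and 1337 CPM with Agtr1a and 454.4, 460.4, 468.2 and 577.4 CPM without. Aff3, Ano4, Rerg and Htr2a, the last encoding a serotonin receptor, were higher with Agtr1a in all 4 libraries. Pde1a, a calcium-dependent phosphodiesterase gene, was at 16.4, 32.7, 36.4 and 28.3 CPM with and 188.0, 157.6, 226.1 and 88.6 CPM without. Pdzrn4, Galnt18, Ablim1 and Cdh18 were lower with Agtr1a in all 4 libraries. As for Hcrtr2, these genes were chosen for the split. The markers that named the class differed too. Tshz1 was at 172, 225, 208 and 191 CPM with Agtr1a and 275, 292, 330 and 322 CPM without, and Col11a1 was likewise lower in all 4 libraries. Casz1 and Htr7 were higher with Agtr1a in all 4, and Otof, Pcdh8 and Cacng5 differed in direction between libraries.

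**Figure D3:**
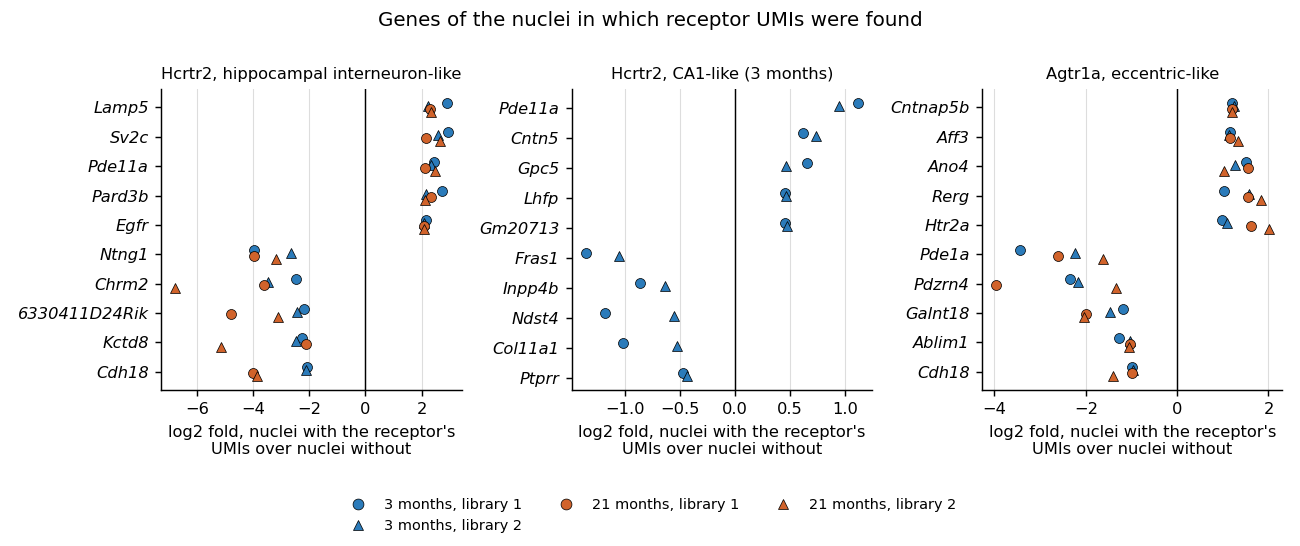
Log2 fold of the level (CPM of the summed UMIs) in nuclei with at least 1 UMI of the receptor over nuclei without, for 5 higher and 5 lower genes in each of 3 classes; each point is 1 library, blue at 3 and orange at 21 months, and CA1-like nuclei show the 3-month libraries only. The genes were chosen for these folds, and for each gene the libraries shown lie on the same side of 0.

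Among the main projection neurons, Agtr1a was highest in the D1-like and D2-like clusters in which Hcrtr2 was also highest. D2-like cluster 6 carried 82.1% of the D2-like Agtr1a UMIs, at 5.56, 6.92, 5.42 and 10.23 CPM, and D1-like cluster 4 carried 61.3% of the D1-like UMIs, at 2.01, 3.76, 3.02 and 3.42 CPM. The largest D2-like cluster, cluster 1, had 0.19, 0.59, 0.26 and 0.77 CPM. Both receptors' higher levels in clusters 4 and 6 were seen in each of the 4 libraries. Over whole classes Agtr1a stood at 1.21, 2.10, 1.63 and 3.17 CPM in D2-like and 0.61, 1.39, 0.83 and 1.46 CPM in D1-like nuclei, with oligodendrocyte-like nuclei between 0.18 and 1.20 CPM.

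The caudate putamen was not used to pick Agtr1a, and its age test there was not passed in any class. In eccentric-like nuclei the log2 fold change was -0.21 ± 0.56 (SE; 95% interval -1.31 to 0.89; adjusted p = 0.941 by edgeR), beside 0.0592% of 11828 genes called. In D1-like nuclei it was 0.13 ± 0.50 (adjusted p = 0.919) and in D2-like nuclei 0.47 ± 0.41 (adjusted p = 0.546). Leaving out 21-month replicate 1 or 3-month replicate 2 turned the eccentric-like value to 0.21 or 0.31. The D1-like value turned to -0.33 without 21-month replicate 2 and to -0.33 without 3-month replicate 1, and the D2-like value to -0.08 without 21-month replicate 2.

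In the hippocampus Agtr1a was low in every class, with 242 UMIs in all. Among groups with at least 20 nuclei in every library, OPC-like nuclei and cluster 13 had the highest hippocampal means. These were 2.15 CPM (0.91 to 3.31 CPM, 9 UMIs) and 2.12 CPM (1.28 to 3.38 CPM, 38 UMIs). Oligodendrocyte-like nuclei of the region lay between 0 and 0.51 CPM from 2 UMIs. Dentate granule-like nuclei, the excitatory neurons that receive the main cortical input, gave 0.68, 0.72, 0.05 and 0.14 CPM from 32, 75, 2 and 5 UMIs, a log2 fold change of -2.89, given as a description. UMIs were found in 25 of 4242, 67 of 8633, 2 of 3535 and 3 of 3052 granule-like nuclei. Cluster 2 of the granule-like nuclei carried 57.9% of the class's Agtr1a UMIs (20, 44, 0 and 2) and 61.7% of its Hcrtr2 UMIs. The granule-like Hcrtr2 level was, as given above, mostly at or below that of oligodendrocyte-like nuclei. Cluster 2 made up 27.2% and 33.1% of granule-like nuclei at 3 months and 12.02% and 12.88% at 21 months. Within it Agtr1a still stood at 1.33 and 1.12 CPM at 3 months against 0 and 0.34 CPM at 21 months. In CA1-like nuclei the receptor was at 0.72, 0.52, 1.32 and 1.47 CPM from 11, 11, 8 and 6 UMIs, with both old libraries above both young. The difference between granule-like and CA1-like nuclei in their age values was not tested, nor was the part that the mix of granule clusters plays.

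Agt had its highest mean over libraries in hippocampal astrocyte-like nuclei. They gave 18.99, 19.42, 31.84 and 26.93 CPM from 153, 168, 325 and 116 UMIs and held 57.5% of the 1326 hippocampal Agt UMIs. Both 21-month libraries, at 29.4 ± 3.5 CPM, were above both 3-month libraries, at 19.2 ± 0.3 CPM (SD, n = 2 each). The summed level of 8 choroid plexus markers in these nuclei was 14.6, 16.3, 36.7 and 374.4 CPM, also higher in both old libraries, and its part was not tested. The share of astrocyte-like nuclei with a UMI was 7.23%, 7.60%, 12.1% and 10.5%, against 0.990%, 1.65%, 1.98% and 0.783% of oligodendrocyte-like nuclei. Median depths were 4254 to 5143.5 UMIs in astrocyte-like and 2933 to 3209 UMIs in oligodendrocyte-like nuclei. Thinned to 2000 UMIs, the astrocyte-like shares were 3.86%, 3.69%, 5.35% and 4.91% and the oligodendrocyte-like shares 0.490%, 1.02%, 0.864% and 0.554%.

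A single astrocyte cluster carried most of it. Cluster 9, led by Slc6a11 (a GABA transporter gene), Pax3, Itih3 and Etnppl, with Agt itself among its 10 leading genes, stood at 108.55, 95.93, 115.73 and 135.56 CPM. It was 13.7% of astrocyte-like nuclei and carried 62.5% of their Agt UMIs. Cluster 1, led by Grin2c and Gldc and holding 81.9% of the nuclei, stood at 11.15, 8.95, 9.83 and 10.06 CPM. Cluster 23, led by Myoc and with Gfap among its leading genes, stood at 14.75, 19.27, 25.80 and 23.55 CPM. Cluster 9 made up 7.70% and 12.3% of astrocyte-like nuclei at 3 months and 20.7% and 13.5% at 21 months. Within cluster 1 the ages overlapped, and within clusters 9 and 23 both old libraries were above both young.

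**Figure D4:**
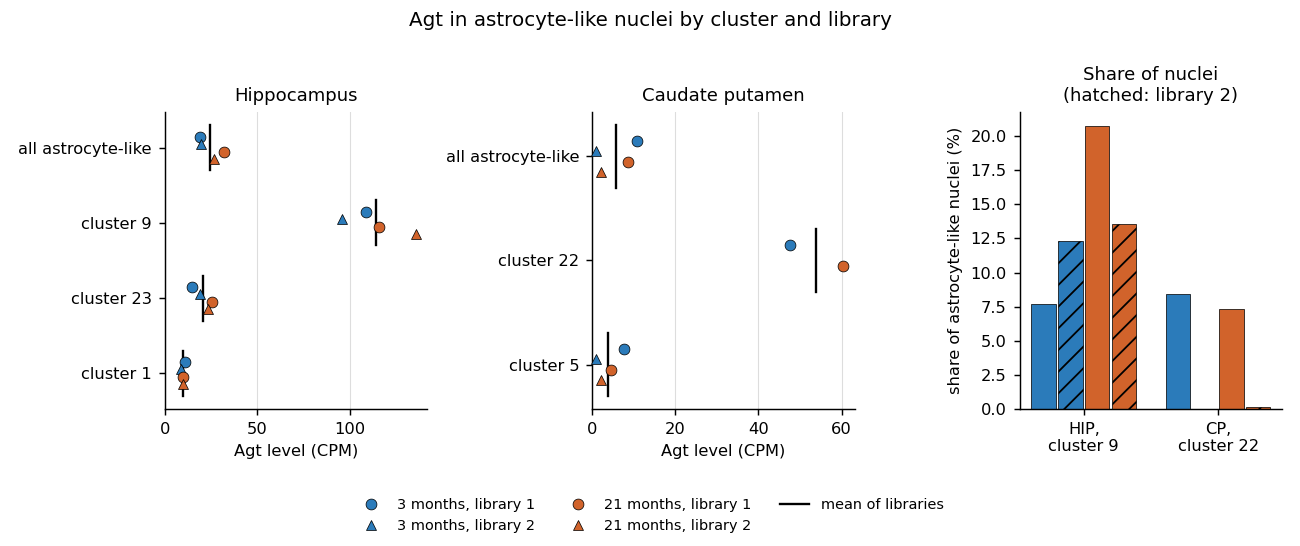
Agt level in UMIs per 1000000 UMIs (CPM, linear) in astrocyte-like nuclei and their clusters for the hippocampus (left) and caudate putamen (middle), with 1 point per library of at least 20 nuclei and the mean as a bar, and the share of astrocyte-like nuclei (%) in the cluster with the highest Agt level of each region (right, HIP hippocampus, CP caudate putamen). Hippocampal cluster 9 lies at 95.93 to 135.56 CPM and cluster 1 at 8.95 to 11.15 CPM, and caudate putamen cluster 22 is found almost only in the library 1 samples.

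In the caudate putamen, astrocyte-like nuclei gave 10.88, 0.84, 8.57 and 2.26 CPM from 50, 3, 54 and 10 UMIs. Replicate 1 libraries were high and replicate 2 libraries low at both ages. Cluster 22, which shared Slc6a11, Itih3, Etnppl and Agt among its leading genes with hippocampal cluster 9, stood at 47.54 and 60.26 CPM in the replicate 1 libraries, from 79 and 90 nuclei, and had 0 and 2 nuclei in the replicate 2 libraries. Without it, cluster 5 gave 7.59, 0.84, 4.45 and 2.27 CPM. The summed level of 8 choroid plexus markers in astrocyte-like nuclei moved the same way, at 221.5, 41.3, 169.2 and 56.6 CPM, and its part in the Agt values was not tested.

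None of the age tests of Agt in astrocyte-like nuclei passed. The log2 fold change was 0.66 ± 0.63 in the hippocampus (SE; adjusted p = 0.717 by edgeR), beside 0.485% of 15055 genes called. In the caudate putamen it was -0.10 ± 0.95 (adjusted p = 0.986; 0.399% called), and the mean over both regions was 0.28 ± 0.57 (adjusted p = 0.849; 3.35% called). The difference of the age effects was -0.76 ± 1.14 (adjusted p = 0.963), in a test that called 0% of genes with edgeR, with 777 genes at an unadjusted p under 0.05 and 6 called by DESeq2. With clusters 9 and 22 left out, a choice made after seeing the data, the hippocampal value was 0.14 and the mean age effect was -0.10. It was -0.40 without caudate putamen 21-month replicate 1 and -0.11 without caudate putamen 3-month replicate 2, and the caudate putamen value was 2.74 without 3-month replicate 1 and 0.47 without 21-month replicate 2.

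Between regions, Agt in astrocyte-like nuclei had a log2 difference, caudate putamen minus hippocampus, of -2.0 ± 0.55 (SE; 95% interval -3.07 to -0.93). Its adjusted p of 0.0612 by edgeR did not pass, in a contrast where 21.1% of genes were called. Every caudate putamen library was below every hippocampal library. With clusters 9 and 22 left out the value was -1.47 and passed (adjusted p = 0.0400). It also passed without caudate putamen 3-month replicate 1 (-3.42, adjusted p = 0.00404), 21-month replicate 1 (-2.68, adjusted p = 0.0437) or 3-month replicate 2 (-1.62, adjusted p = 0.0207), all by edgeR. In oligodendrocyte-like nuclei the same contrast was -2.71 ± 0.62 (adjusted p = 0.0176), beside 12.5% of 14088 genes called, at 3.45, 4.92, 6.11 and 2.75 CPM in the hippocampus and 1.24, 0, 1.33 and 0.24 CPM in the caudate putamen. These levels were 10.2% to 25.3% of the astrocyte-like level in the hippocampal libraries. The 9692 oligodendrocyte-like nuclei of the caudate putamen gave 20 Agt UMIs, and the part of free RNA in the contrast was not tested. With a library left out, the oligodendrocyte-like call was lost without hippocampal 21-month replicate 1 (-2.32) and without hippocampal 3-month replicate 2 (-2.58). With a replicate block, given at the end, the oligodendrocyte-like call was also lost and the astrocyte-like contrast passed.

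Outside astrocytes, unnamed hippocampal cluster 11 came next and overlapped the astrocyte-like range, at 42.66, 16.97, 21.09 and 0 CPM. These came from 2, 11, 1 and 0 UMIs in 51, 662, 41 and 21 nuclei of low depth, with medians of 813 to 1031 UMIs. Hippocampal fibroblast-like nuclei gave 5.88, 18.97, 12.17 and 8.58 CPM of Agt from 4, 14, 13 and 2 UMIs. Dentate granule-like nuclei held 21.6% of hippocampal Agt UMIs at 0.83, 1.35, 1.83 and 0.73 CPM. CA1-like nuclei were at 0.49 to 1.18 CPM. Neither neuronal class exceeded the oligodendrocyte-like level of its own library.

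Ace had its highest level in the choroid plexus-like nuclei of the caudate putamen punches, cells that secrete cerebrospinal fluid. The 71 and 61 nuclei of the replicate 1 libraries gave 66.08 and 72.85 CPM from 43 and 38 UMIs, pooled 69.1 CPM (exact Poisson interval 54.9 to 85.9), and the replicate 2 libraries held no such nuclei. At least 1 Ace UMI was found in 40.8% and 45.9% of them. D1-like nuclei, however, held 63.2% and D2-like nuclei 25.1% of the 2872 Ace UMIs of the region. The hippocampus had 199 Ace UMIs in all.

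**Figure D5:**
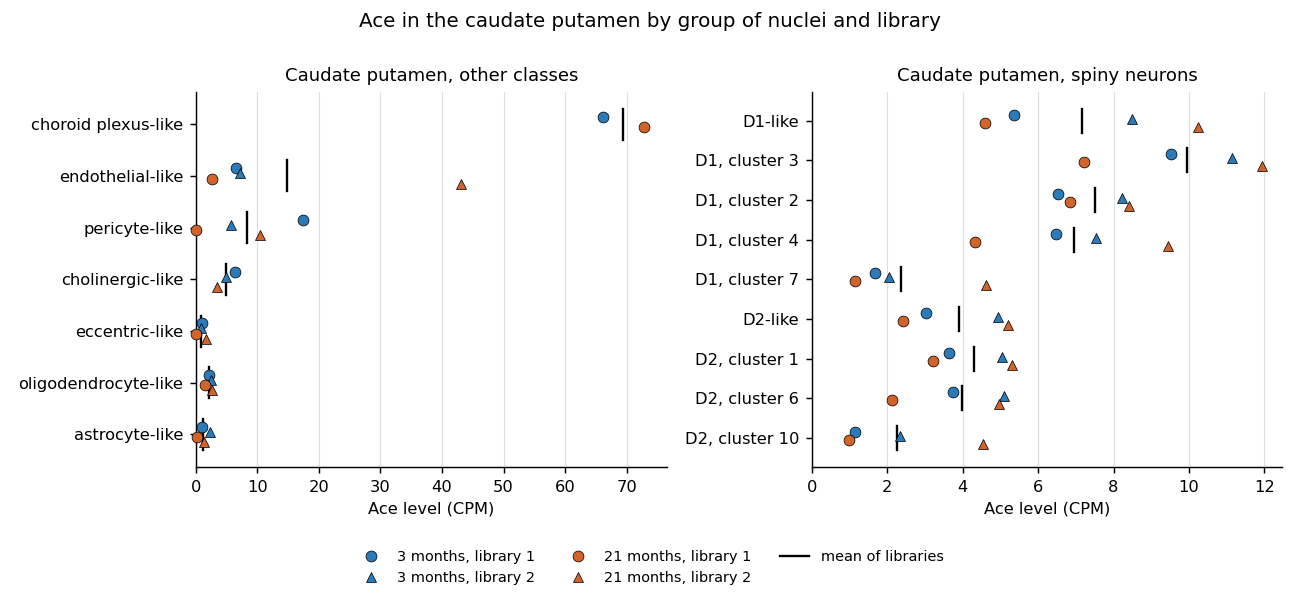
Ace level in UMIs per 1000000 UMIs (CPM, linear axes that differ between panels) in caudate putamen groups, with named classes and their clusters; each point is 1 library with at least 20 nuclei in the group, blue at 3 and orange at 21 months, and the bar is the mean of those libraries. Choroid plexus-like nuclei, present in the library 1 samples only, reach 66.08 and 72.85 CPM, and in D1-like nuclei library 2 (triangles) lies above library 1 (circles) at both ages.

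D1-like nuclei gave 5.36, 8.50, 4.61 and 10.23 CPM of Ace from 309, 713, 238 and 555 UMIs, a mean of 7.17 ± 2.64 CPM (SD, n = 4). D2-like nuclei gave 3.02, 4.94, 2.43 and 5.21 CPM, a mean of 3.90 ± 1.38 CPM. In each library the D1-like level was the higher of the pair, by 1.72 to 1.964 times. Replicate 1 libraries were lower than replicate 2 libraries at both ages in both classes. Oligodendrocyte-like nuclei of the same libraries were at 2.12, 2.47, 1.46 and 2.65 CPM.

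Ace varied among the D1-like clusters. Cluster 3 stood at 9.53, 11.14, 7.23 and 11.93 CPM, the highest of the 4 D1-like clusters in each library. Cluster 2 gave 6.52, 8.23, 6.84 and 8.42 CPM and cluster 4 gave 6.46, 7.53, 4.33 and 9.45 CPM. Cluster 7 was the lowest in each library, at 1.69, 2.05, 1.16 and 4.63 CPM. Among the D2-like clusters, cluster 1 gave 3.65, 5.04, 3.22 and 5.32 CPM and cluster 6 gave 3.75, 5.09, 2.13 and 4.96 CPM, with cluster 10 at 1.15, 2.34, 1.00 and 4.54 CPM. Clusters 7 and 10 were 31.4% and 23.4% of their classes in 3-month library 1 and 3.15% and 2.32% in library 2, and likewise at 21 months (29.6% and 22.6% against 1.42% and 0.945%). Within clusters 2, 3, 4, 1 and 6, taken 1 by 1, the replicate 1 library was also below the replicate 2 library at each age. Cluster 4, the highest D1-like cluster for Hcrtr2 and Agtr1a, was in no library the highest for Ace.

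Age tests of Ace in the projection neurons did not pass. The log2 fold change was 0.06 ± 0.54 in D1-like (SE; 95% interval -1.01 to 1.13; adjusted p = 0.967 by edgeR) and -0.11 ± 0.47 in D2-like nuclei (interval -1.04 to 0.82; adjusted p = 0.918). Leaving out 21-month replicate 2 or 3-month replicate 1 turned the D1-like value to -0.62 or -0.25, and leaving out 21-month replicate 1 or 3-month replicate 2 turned the D2-like value to 0.33 or 0.34.

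Vessel cells held few Ace UMIs. Even so, among the 33 groups with at least 20 nuclei in every library, caudate putamen endothelial-like and pericyte-like nuclei had the highest means. These were 14.9 ± 18.9 and 8.40 ± 7.38 CPM (SD, n = 4), with ranges that overlapped that of D1-like nuclei. Endothelial-like nuclei gave 13.92, 9.84, 2.50 and 0 CPM in the hippocampus from 9, 5, 3 and 0 UMIs, and 6.61, 7.13, 2.63 and 43.12 CPM in the caudate putamen from 2, 2, 1 and 7 UMIs. Pericyte-like nuclei of the caudate putamen gave 7 UMIs in 323 nuclei. Ace in oligodendrocyte-like nuclei differed between regions, with 12, 17, 12 and 22 UMIs in the caudate putamen against 0, 0, 0 and 1 in the hippocampus (log2 difference 5.16 ± 0.87, adjusted p = 0.0021 by edgeR). At resolution 2.0 and when thinned, Ace was below the low-count filter in these nuclei and gave no test. With a replicate block, given at the end, the call was lost. Beside this value stand the D1-like levels of the same caudate putamen libraries and the 199 Ace UMIs of the whole hippocampus, and the part of free RNA in it was not tested.

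The other genes of both systems were described from 2 lists, a renin-angiotensin list of 25 genes and an orexin receptor and Gq signalling list of 27, which include the 5 genes. Renin (Ren1) had 7 UMIs in all nuclei, the chymase gene Cma1 had 0, Ctsg 2, Klk1 2 and the receptor gene Mrgprd 5. Enpep (169.7 CPM) and Anpep (72.7 CPM), aminopeptidases that act on angiotensin peptides, were highest in caudate putamen pericyte-like nuclei. Mas1, which encodes the Mas receptor, stood at 31.2, 36.8, 32.8 and 34.2 CPM in dentate granule-like nuclei. Hcrt, the orexin precursor, had 48 and 46 UMIs in the 2 regions.

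Some list genes changed with age in hippocampal neurons, where the receptor picked on each contrast was left out of its list. Dentate granule-like nuclei had 1 of 12 tested renin-angiotensin genes lower and 3 of 23 tested orexin genes lower, none higher, beside 2.61% of 18016 genes called. Slc8a1, the sodium-calcium exchanger, stood at 114.9, 135.6, 39.2 and 35.7 CPM, a log2 fold change of -1.69 ± 0.08 (adjusted p = 2.1e-05 by edgeR) that stayed called in 12 of 12 alternatives. Mme, the peptidase neprilysin, stood at 6.32, 6.54, 1.78 and 2.71 CPM (-1.48 ± 0.20, adjusted p = 0.0058), and its call was lost without 21-month replicate 1. The calcium channel gene Trpc5 (-0.36, adjusted p = 0.0247) and the arrestin gene Arrb2 (-0.44, adjusted p = 0.0334) fell in the fit over all libraries; both calls were lost without either 21-month library. Beside these falls, granule-like cluster 0 made up 21.2% and 13.6% of the class at 3 months and 51.5% and 48.5% at 21 months, and cluster 5 made up 19.7% and 27.7% against 7.75% and 8.52%. The 10 astrocyte markers summed to 1145, 1244, 961.8 and 911.4 CPM in these nuclei, and the part of either in the falls was not tested. The median log2 fold change was 0.03 over the tested renin-angiotensin genes and 0.07 over the orexin genes, against -0.02 over all genes.

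In CA1-like nuclei 1 of 10 tested renin-angiotensin genes and 1 of 22 tested orexin genes rose, beside 0.774% of 14607 genes called. Nr3c2, the mineralocorticoid receptor that binds aldosterone, stood at 1425, 1360, 1894 and 1733 CPM (log2 fold change 0.47 ± 0.09, adjusted p = 0.0299 by edgeR). Itpr2, an inositol trisphosphate receptor, stood at 54.3, 61.8, 81.8 and 72.4 CPM (0.50 ± 0.10, adjusted p = 0.0380). Nr3c2 was no longer called without 21-month replicate 1, without 3-month replicate 2 or at resolution 2.0, and Itpr2 without either replicate 1 library, at resolution 2.0 or with DESeq2. The subiculum, choroid plexus and oligodendrocyte marker sums given above for these nuclei were also higher in both old libraries and the astrocyte sum was lower, and their part was not tested. The list medians were -0.01 and 0.11, against -0.01 over all genes.

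In the caudate putamen projection neurons neither list had a called gene with age in the edgeR fit over all 4 libraries, where 1.36% of all genes were called in D1-like and 4.67% in D2-like nuclei. Of the 13 renin-angiotensin genes tested in D1-like nuclei and 13 in D2-like nuclei, and of the 25 and 24 orexin genes, 0 were called. At an unadjusted p under 0.05 there were 1 and 1 renin-angiotensin genes, Nr3c2 in each class, and 3 and 4 orexin genes, among them Arrb2 in each. DESeq2 called 1 gene, Nr3c2 in D2-like nuclei. Nr3c2 was also called in either class with clusters left out and in D2-like nuclei without a low-count filter. In D1-like nuclei Arrb2 was called under both of these settings and Itpr3 with clusters left out. A replicate block, given at the end, called genes of both lists in each class. Medians were 0.06 and -0.03 for the renin-angiotensin and -0.01 and -0.01 for the orexin list, beside 0.00 over all genes of either class.

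In the mean age effect over both regions, a few list genes changed in astrocyte-like and oligodendrocyte-like nuclei. Nln, the peptidase neurolysin, was higher with age in astrocyte-like nuclei, at 73.96, 60.59, 100.1 and 90.76 CPM in the hippocampus and 80.50, 85.75, 119.0 and 120.7 CPM in the caudate putamen (mean log2 fold change 0.54 ± 0.09, adjusted p = 0.0064 by edgeR). It was the 1 renin-angiotensin gene of 13 called there, with 0 of 22 orexin genes, beside 3.35% of all genes, and these counts were near that share. Its call was lost without hippocampal 21-month replicate 1. In oligodendrocyte-like nuclei, where 5.15% of genes were called, Plcb4, a phospholipase C gene, stood at 61.2, 54.3, 81.5 and 89.0 CPM in the hippocampus and 56.1, 44.1, 80.6 and 94.7 CPM in the caudate putamen (0.73 ± 0.10, adjusted p = 0.0019) and stayed called in 15 of 15 alternatives. Prkca (0.40) and Nr3c2 (0.28) also rose, and Arrb2 (-0.70) fell. Nr3c2 and Arrb2 stayed called in 7 of 15 alternatives each, and Prkca was lost without caudate putamen 3-month replicate 2 or hippocampal 21-month replicate 1. Without hippocampal 21-month replicate 1, the calls of Prkca, Nr3c2 and Arrb2 were all lost. Other markers moved with age in the same nuclei. The 10 astrocyte markers summed to 386.1, 312.3, 496.8 and 569.8 CPM in caudate putamen oligodendrocyte-like nuclei, whose 9 own markers summed to 14652, 15001, 14287 and 12339 CPM. In hippocampal oligodendrocyte-like nuclei the 8 dentate granule markers summed to 1269, 1271, 1071 and 1075 CPM. The 10 astrocyte markers in caudate putamen astrocyte-like nuclei summed to 15698, 15640, 16669 and 16875 CPM. The part of these in the changes was not tested.

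Among other glia, 1 of 20 tested orexin genes was called in the mean age effect of OPC-like nuclei, the oligodendrocyte precursors, beside 1.94% of 10448 genes. This was Itpr1, an inositol trisphosphate receptor gene (0.47, adjusted p = 0.0342 by edgeR), which stayed called in 9 of 16 alternatives and was lost with DESeq2 and without any 1 of 4 libraries: replicate 2 of either age in the caudate putamen and replicate 1 of either age in the hippocampus. In microglia-like nuclei 1 of 23 was called, beside 1.69% of 10263 genes. This was Prkcb, a protein kinase C gene (0.43, adjusted p = 0.0076), which stayed called in 12 of 15 alternatives and was lost without either 3-month library of the caudate putamen or without hippocampal 21-month replicate 1.

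Among the unnamed clusters tested, 3 had list genes called with age, each from the orexin list. Trpc6, a calcium channel gene, fell in hippocampal cluster 13, whose leading genes include Hs3st4 and Trhde. It stood at 17.8, 20.8, 7.5 and 4.4 CPM from 78, 146, 17 and 21 UMIs (log2 fold change -1.75 ± 0.27, adjusted p = 0.0165 by edgeR). It was the 1 of 20 tested orexin genes called there, beside 0.208% of 12513 genes. Its call was lost without 21-month replicate 2, with DESeq2 and when thinned. Dentate granule-like nuclei held 560.5 CPM of Trpc6, pooled, and the part of free RNA in the cluster 13 values was not tested. In caudate putamen cluster 8, led by A530053G22Rik, A330072L02Rik and Enpp6, 3 of 16 tested orexin genes rose, beside 1.18% of 11569 genes. Plcb4 stood at 53.4, 53.8, 98.1 and 93.6 CPM (0.89 ± 0.13, adjusted p = 0.0047), Prkca at 619.7, 559.3, 774.3 and 932.1 CPM (0.57 ± 0.10, adjusted p = 0.0173) and Itpr2 at 12.36, 12.03, 26.5 and 23.8 CPM (1.10 ± 0.23, adjusted p = 0.0362), all by edgeR. Each of the 3 calls was lost without either 3-month library, and Itpr2 also with DESeq2 and when thinned. Hippocampal cluster 11, with the T cell gene Skap1 among its leading genes, held 51, 662, 41 and 21 nuclei of low depth. Their medians were 814, 883.5, 813 and 1031 UMIs, and 2, 11, 5 and 6 nuclei reached 2000 UMIs. The cluster also held 53.0 CPM of Mas1, pooled. Prkca was called higher there with age, from 12, 134, 37 and 42 UMIs (1.74 ± 0.42, adjusted p = 0.0459 by edgeR). It was 1 of 11 tested orexin genes, beside 2.95% of 948 genes. That call was lost in 5 of 9 alternatives, among them DESeq2 and leaving out 3-month replicate 2.

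Between regions, several list genes differed in glial nuclei. Mme was higher in caudate putamen astrocyte-like nuclei, at 6.092, 8.997, 5.871 and 17.43 CPM against 0.37, 0.46, 0.69 and 0.70 CPM in the hippocampus (log2 difference 4.02 ± 0.45, adjusted p = 0.00011 by edgeR). D1-like nuclei of those libraries held 69.9, 91.2, 68.1 and 112.4 CPM of Mme. Mme was also called higher in the caudate putamen in oligodendrocyte-like (3.76), OPC-like (4.54) and microglia-like nuclei (4.80), so its difference was not particular to astrocyte-like nuclei. Kcnj6, a potassium channel gene, was higher in hippocampal oligodendrocyte-like nuclei, at 34.5, 63.3, 29.8 and 29.1 CPM against 1.59, 1.16, 0.49 and 3.13 CPM. Dentate granule-like nuclei held 817.7 CPM of it, pooled. The caudate putamen was also called lower for Kcnj6 in astrocyte-like (-4.24) and microglia-like nuclei (-3.55). In astrocyte-like nuclei 3 renin-angiotensin genes of 13 tested were higher in the caudate putamen (Mme, Nln and Prep) and Mas1 was lower, and of 22 orexin genes 2 were higher and 10 lower, where 21.1% of all genes were called. The renin-angiotensin count, 4 of 13, was near that share. The medians were 0.06 and -0.35, against -0.01 over all genes. These neuronal levels stand beside the glial ones, and the part of free neuronal RNA was not tested.

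The genes whose levels were most like those of each of the 5 were found by correlation over all 47 groups of nuclei on the log2(CPM + 1) scale. Groups of 1 region share libraries, and scarce groups share low depth, so the values are descriptions. For Agt they were Gfap (r = 0.91), Aldoc (0.85), Entpd2 (0.84), Lcat (0.81) and Myoc (0.80), of which Gfap and Aldoc are textbook astrocyte genes, and 2 of the 5 were also among the first 5 by rank correlation. Ace was most like Golgb1, Htr2c, Gm31251, Gm44933 and Ogdh, between 0.68 and 0.69. Agtr1a was most like Zp3r (0.61), Ankk1, Chat (0.59), Gm2990 and Gm4894. Hcrtr2 was most like Gm5149 (0.71), Ubap1l, Gm17188, 4930527B05Rik and Gm35256, and Hcrtr1 like Olfr33 (0.74), Gldn, Ttn, Smim31 and Gm18870; no gene of these last 3 sets but Gm35256 was among the first 5 by rank correlation.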

How the data were processed

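Single-nucleus libraries (10x 3' v3.1, per the labels' protocols) were deposited by the authors as UMI count matrices of filtered barcodes. The submitters' processing notes name mm10 and Cell Ranger 4.0.0, whereas the file headers name Cell Ranger 6.1.2 for 7 libraries and 7.0.0 for 1, caudate putamen 3-month replicate 2. Nuclei with fewer than 500 genes (1307) or over 5% mitochondrial UMIs (3) and 11095 Scrublet doublets were removed. Each region was clustered with scanpy 1.11.5 (3000 variable genes, 40 components, 20 neighbours, Leiden resolution 1.0) and clusters were named from marker lists. The doublet threshold and the naming limits were set after seeing the data. Counts were summed per library and class and tested with edgeR 4.0.16 quasi-likelihood fits (TMM, filterByExpr, Benjamini-Hochberg over all genes of the class, called under 0.05) where each library held at least 20 nuclei, neurons over the 4 libraries of their region and shared classes over all 8. CPM are summed UMIs of a gene per 1000000 summed UMIs.

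Libraries are pools, and p-values measure the spread between 2 libraries per group, taken over the groups of both regions in shared classes. Poisson and binomial intervals are exact, at 95%, and cover counting error only. The SE of a log2 change was derived from the change and its F value. The 95% intervals of log2 changes are normal approximations from that SE, which are too narrow for so few libraries. The 5 genes, both pathway lists and the comparisons were chosen with earlier results of these data known. Genes besides these were named by rule: the 5 most alike by correlation, the list genes called, and the 5 highest and 5 lowest between nuclei with and without a receptor's UMI. The functions were tested on simulated counts. Alternatives covered DESeq2 1.42.0, size factors, low-count filter, doublets, clustering resolution, thinning, a replicate block and leaving out each library.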

Additional observations from a re-analysis of the deposited data

How the results depend on the processing

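Of 308 alternatives of the main results, 261 kept direction and side of the threshold (or stayed within the spread between libraries), 4 lost and 6 gained a call, 15 moved and 22 changed sign; the cause was not tested. Few UMIs and 2 libraries per group limit these values, and groups at or below the oligodendrocyte-like level carry no reading. The log2 age values ranged, leaving out each library in turn, from -0.65 to 0.39 for Hcrtr2 in D2-like nuclei, -0.70 to 2.08 in caudate putamen cluster 15, -0.90 to 0.22 in interneuron-like and -1.49 to -1.33 in dentate granule-like nuclei. For Agtr1a they ranged from -0.79 to 0.31 in eccentric-like, -0.33 to 0.91 in D1-like, -0.0768 to 0.99 in D2-like and -3.83 to -2.23 in dentate granule-like nuclei. Ace ranged from -0.62 to 0.51 in D1-like (-0.0375 at resolution 2.0) and -0.75 to 0.34 in D2-like nuclei. Agt in astrocyte-like nuclei ranged from -1.47 to 2.74 in the caudate putamen (0.17 when thinned), -0.40 to 1.70 for the mean (-0.10 with clusters 9 and 22 left out), -2.13 to 2.09 for the difference and -3.42 to -1.62 between regions (-1.47 with those clusters left out). In oligodendrocyte-like nuclei Agt between regions ranged from -5.04 to -2.16. Hcrtr2 in granule-like nuclei was -1.32 with doublets kept and -1.16 when thinned. The Agtr1a mean at resolution 0.5 was 23.5 CPM in eccentric-like and 4.82 CPM in D2-like nuclei. Without thinning, shares of nuclei with a UMI averaged 30.0% for Hcrtr2 in interneuron-like, 5.57% in CA1-like, 34.8% for Agtr1a in eccentric-like, 9.34% for Agt in astrocyte-like and 8.69% for Ace in D1-like nuclei; at 1000 UMIs they were 6.92%, 2.32% and 0.721% for interneuron-like, astrocyte-like and D1-like nuclei.

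Counts of genes called with age moved by over 1.5 times. D1-like nuclei had 250, with DESeq2 701, at resolution 2.0 156, without low-count filter 933 and with clusters left out 1295; leaving out 1 library gave 4 to 196. D2-like nuclei had 809, against 473, 1731 and 1633 for resolution, filter and clusters, and 72 to 408 with 1 library out. Eccentric-like nuclei had 7, against 0 with DESeq2 or resolution 0.5 and 194 unfiltered. Granule-like nuclei had 471, against 713 with doublets kept, 1732 unfiltered and 79 to 2640 with 1 library out. CA1-like nuclei had 113, against 66 at resolution 2.0, 225 with doublets, 421 unfiltered, 28 without 21-month replicate 1 and 222 without 3-month replicate 1. Unfiltered counts were 1530 against 504 in astrocyte-like and 1685 against 726 in oligodendrocyte-like nuclei (mean age effect), and oligodendrocyte-like region calls were 1768, or 1015 at resolution 2.0. With 1 library out, the mean age effect had 141 to 1317 calls in astrocyte-like and 229 to 1662 in oligodendrocyte-like nuclei, and astrocyte-like nuclei had 27 to 776 against 73 in the hippocampus and 19 to 198 against 60 in the caudate putamen. The 1317, 1662 and 776 were without hippocampal 3-month replicate 1. Leaving out 1 library gave 3 to 162 against 26 in hippocampal cluster 13, 7 to 116 against 28 in hippocampal cluster 11, 5 to 579 against 137 in caudate putamen cluster 8, 119 to 323 against 203 in OPC-like and 68 to 525 against 173 in microglia-like nuclei.

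Same-numbered libraries share only a number in the labels. Their deviations correlated at 0.63 in D1-like, 0.51 in D2-like, 0.32 in astrocyte-like and 0.12 in oligodendrocyte-like nuclei for the caudate putamen, and between -0.04 and 0.06 in the hippocampus. With a replicate block, calls went to 2783 in D1-like, 2712 in D2-like, 326 in eccentric-like, 483 in CA1-like and 871 in astrocyte-like nuclei (mean), and to 761 for oligodendrocyte-like regions. Called renin-angiotensin and orexin list genes went from 0 and 0 to 1 and 6 in D1-like and to 2 and 7 in D2-like nuclei. The main fits tested 13 and 25 list genes in D1-like and 13 and 24 in D2-like nuclei. These counts stand beside the 2783 and 2712 calls over all genes, of which the main fits tested 18401 and 17329. With the block, Hcrtr2 in D1-like nuclei was -0.62 (adjusted p = 0.0248 by edgeR). Agt between regions was -1.27 (adjusted p = 0.00148 by edgeR) in astrocyte-like and -1.65 (adjusted p = 0.180) in oligodendrocyte-like nuclei, and Ace in the latter was 4.08 (adjusted p = 0.0737). At resolution 2.0 and when thinned, Ace in oligodendrocyte-like nuclei was below the low-count filter and gave no test.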
